A study of Rattus norvegicus with 12 samples.

Results

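The genes described here are 50 members of the interferon response and of antigen presentation, followed in the ventral prostate of adult male Wistar rats deprived of androgen in 3 ways. A member was measured where a probe set of the array was annotated with its symbol alone. That held for 46 of the 50, among 14506 genes tested in all, and each measured member had 1 probe set. Ddx58, Samhd1, Xaf1 and Nlrc5 were not measured. The 46 comprised 32 interferon-induced genes and 14 antigen presentation genes, of which 7 serve the class I pathway and 7 the class II pathway.

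The study held 12 arrays, 3 in each of 4 groups, and all animals were intact Wistar males until treatment at 90 days of age. Control rats received only the vehicle, corn oil. Castrated rats had both testes removed by orchiectomy, with ketamine at 150 mg/kg and xylazine at 10 mg/kg as anaesthetics. Estradiol rats kept their testes and received a single 25 mg/kg dose of 17β-estradiol in corn oil, and combined rats had both procedures. The prostate was taken 3 days later. The sources used here do not say whether rats that were only castrated also received corn oil, or whether control rats were anaesthetised. The loss of the testes cannot be told apart from the operation and its anaesthetics. The design text names more rats than there are arrays and does not say whether tissue was pooled, and the labels tie no array to a named animal. Every SD and n = 3 below is therefore over arrays, and the spread that the p-values rest on may be technical.

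Interferons are secreted proteins that act through paired receptors and Janus kinases. Type I interferon activates a complex that contains STAT2 and IRF9 and binds interferon-stimulated response elements (ISRE), and promoters induced by interferon gamma often carry gamma-activated sites (GAS). The induced genes encode sensors of viral RNA and DNA, antiviral effectors and GTPases that act on vacuoles holding microbes. Interferon gamma also induces the immunoproteasome, the TAP peptide transporter and, through CIITA, the class II molecules that macrophages, dendritic cells and B cells display. The rat ventral prostate is mostly secretory epithelium that regresses after androgen loss, while leukocytes enter the gland.

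Few of these genes passed the test. In castrated rats 3 interferon-induced genes rose, Ifit1, Gbp2 and Ifi47, and 1 fell, Ifih1. Of all genes 3.17% rose and 2.36% fell in that comparison. Ifih1 also fell after estradiol and after the combined treatment, where no other member passed. In these comparisons 5.48% and 2.21% of all genes fell. No antigen presentation gene passed in any comparison of the main fit over all 12 arrays, though some alternative fits described below called several. Beside these calls, 28 of the 32 interferon-induced genes stood above control in castrated rats, as did 51.6% of all genes. The median log2 difference of the 32 was 0.57, against 0.01 over all genes. Without castrated array 3 it was 0.38, and 0 interferon-induced genes rose.

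The values are levels per probe set on a log2 scale, so that a difference of 1 is read as a 2-fold change. The median level of an array was 5.53 to 5.76. Estradiol arrays 1 and 2 had a narrower spread of levels than the others, with standard deviations over probe sets of 1.93 and 2.01 against 2.24 to 2.30. The 10% of genes brightest by mean over all arrays averaged 9.28 and 9.82 on these arrays, against 10.0 to 10.1 elsewhere. The dimmest 10% of genes averaged 3.41 and 3.34, against 2.69 to 2.85. Bright genes on average read low on these arrays and dim genes high. No pair of arrays held identical values. In control rats the labelled tissue was borne out by 2 bright secretory markers. Probasin (Pbsn) averaged 11.20 in control and 4.63 in castrated rats, and Scgb2a1 averaged 12.86 and 12.64. The summed linear level of seminal vesicle genes reached 813 in the estradiol group, against at most 211 on control arrays.

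Differences were tested with limma over all 14506 genes, and "rose" and "fell" are used of genes with a Benjamini-Hochberg adjusted p under 0.05. For castrated against control 5.54% of all genes passed, 3.17% higher and 2.36% lower. For estradiol against control 7.99% passed, 2.51% higher and 5.48% lower. For the combined treatment 4.32% passed, 2.12% higher and 2.21% lower. The members' counts against these backgrounds were 4 of 46 for castration, 1 of 46 for estradiol and 1 of 46 for the combined treatment. Since the 3 comparisons share the control arrays, their values are given side by side.

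**Figure D1:**
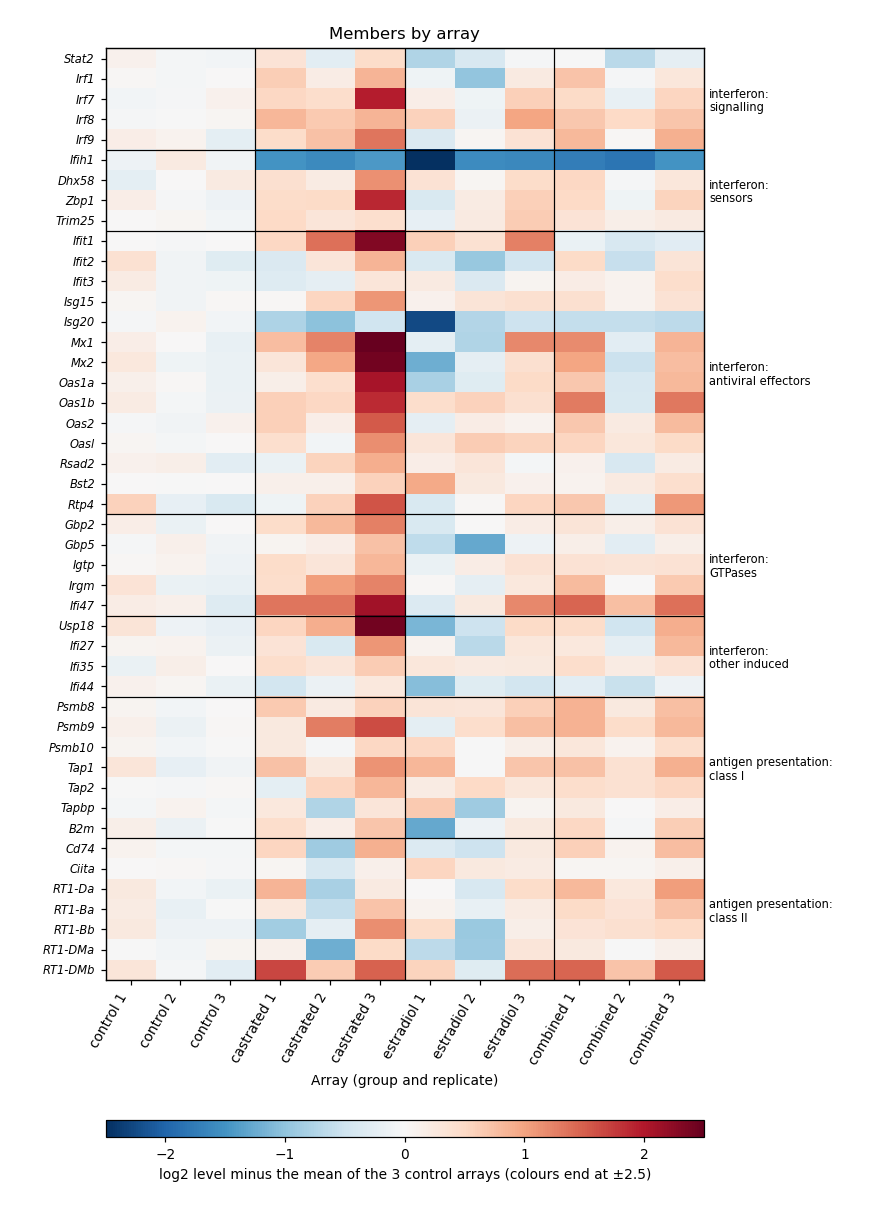
Heat map of the 46 measured members (vertical axis, ordered by role) over the 12 arrays (horizontal axis, by group), with colour giving the log2 level minus the gene's mean over the 3 control arrays. The warmest cells gather on castrated array 3, and Ifih1 and Isg20 are below control on all 9 treated arrays.

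Promoters of many of these genes carry the letters that interferon-activated factors read. Promoters of 35 measured members were found by gene identifier, or else by symbol, in RefSeq's table for build GRCr8. Each spanned 250 bases before to 50 after the transcription start. The ISRE core was searched as GAAANNGAAA, the GAS as TTCNNNGAA, and the Y box of class II promoters as CTGATTGG, on both strands. The ISRE core was in 14 of 23 interferon-induced promoters (60.9%) and 6 of 7 class I promoters (85.7%), against 3.77% of all 27457 promoters of that length. The GAS was in 9 of the 23 (39.1%) and 1 of the 7, against 8.68%. The Y box was in 3 of 5 class II promoters (60%), against 3.55%, and none of these 5 held an ISRE core or a GAS. A GAS match overlapped an ISRE match in 1 member, and 2 ISRE matches overlapped in 4. A match describes letters in this window and is not a measured binding site.

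The 250 bases before the start are shown for 3 members that passed the test, with each ISRE core or GAS match in capitals. Ifih1 lies on the minus strand (chr3:67683969-67684218), Gbp2 on the plus strand (chr2:234005477-234005726) and Ifi47 on the plus strand (chr10:33798494-33798743). Each is printed 5′ to 3′ along its gene.
Ifih1: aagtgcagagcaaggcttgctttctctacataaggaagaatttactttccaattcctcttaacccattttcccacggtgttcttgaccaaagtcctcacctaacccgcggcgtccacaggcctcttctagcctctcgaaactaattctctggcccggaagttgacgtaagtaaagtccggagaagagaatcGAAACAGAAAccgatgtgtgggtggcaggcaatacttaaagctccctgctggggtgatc
Gbp2: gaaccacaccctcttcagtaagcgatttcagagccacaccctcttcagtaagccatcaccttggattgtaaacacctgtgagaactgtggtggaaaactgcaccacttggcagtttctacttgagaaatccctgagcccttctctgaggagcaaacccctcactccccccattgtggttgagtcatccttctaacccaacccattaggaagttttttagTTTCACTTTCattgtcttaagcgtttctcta
Ifi47: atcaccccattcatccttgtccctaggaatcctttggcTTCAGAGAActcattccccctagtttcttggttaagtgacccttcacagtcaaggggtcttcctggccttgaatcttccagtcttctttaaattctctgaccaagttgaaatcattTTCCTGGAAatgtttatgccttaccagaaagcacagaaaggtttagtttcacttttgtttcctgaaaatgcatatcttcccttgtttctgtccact
Ifih1, which fell, holds 1 ISRE core starting at position -59 from the transcription start, and Gbp2, which rose, holds 1 on the opposite strand at -31. Ifi47, which rose, holds 2 GAS matches and no ISRE core. Ifit1 has no entry in the table.

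Shorter windows of 30 bases, with the ISRE core in capitals, show the same letters in members whose values differed in direction.
Isg20: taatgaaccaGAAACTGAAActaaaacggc
Oas1a: tcgggaaatgGAAACTGAAAatcttgttcc
Irgm: tcaaggaataGAAACTGAAAccgactctct
Psmb8: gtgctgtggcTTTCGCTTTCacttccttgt
B2m: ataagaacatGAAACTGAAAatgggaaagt
The windows of the class II genes below have the Y box in capitals.
RT1-Da: ggaacatttttCTGATTGGctagaactcaa
RT1-Ba: aggggaattttCTGATTGGtctgtcgggtt
RT1-Bb: cagctccagtgCTGATTGGctcctcacttg
The match in Psmb8 reads on the opposite strand. Of the genes shown, Isg20 was low on all treated arrays, and B2m, Oas1a, Irgm and Psmb8 averaged higher in castrated rats than in controls without passing the test. Members with an ISRE core thus stood on both sides of control.

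Among the sensors, Ifih1 (probe set 10845708) encodes MDA5, which detects long double-stranded RNA. Its level was 10.85, 11.21 and 10.89 on the control arrays, 9.50, 9.40 and 9.54 on the castrated arrays, 8.25, 9.42 and 9.38 on the estradiol arrays and 9.26, 9.16 and 9.48 on the combined arrays. Every treated array lay below every control array. The group means were 10.99 ± 0.20 (SD, n = 3) in control, 9.48 ± 0.07 in castrated, 9.01 ± 0.66 in estradiol and 9.30 ± 0.17 in combined rats. Ifih1 was thus 2.84-fold lower after castration (log2 difference -1.51 ± 0.26 SE, adjusted p = 0.0036, limma). It was 3.92-fold lower after estradiol (-1.97 ± 0.26, adjusted p = 0.000618) and 3.21-fold lower after both (-1.68 ± 0.26, adjusted p = 0.00179). The lowest single value was on estradiol array 1, on which bright genes read low.

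Zbp1, a sensor of left-handed nucleic acids, stood on the other side of control in castrated rats. It read 5.87, 5.67 and 5.58 in control, 6.16, 6.17 and 7.59 in castrated, 5.32, 5.91 and 6.30 in estradiol and 6.20, 5.60 and 6.27 in combined rats. Castrated arrays were all above control, and array 3 stood far above the other 2. Its difference for castration was 0.93 ± 0.35 (adjusted p = 0.17). Trim25, a ubiquitin ligase acting on RNA sensing, and Dhx58, which encodes LGP2, averaged 0.41 and 0.58 above control in castrated rats and did not pass.

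The signalling members are transcription factors that carry the interferon signal into the nucleus. All 5 measured, Stat2, Irf1, Irf7, Irf8 and Irf9, averaged above control in castrated rats, with a median of 0.77, and none passed. Irf8, a factor of the macrophage and dendritic cell lineages, read 5.81, 5.83 and 5.90 in control, 6.67, 6.49 and 6.69 in castrated, 6.42, 5.69 and 6.83 in estradiol and 6.52, 6.35 and 6.54 in combined rats. Castrated and combined arrays all lay above control, while the estradiol arrays straddled it. The differences were 0.77 ± 0.22 for castration (adjusted p = 0.0648) and 0.62 ± 0.22 for the combined treatment (adjusted p = 0.168). Irf9, the DNA-binding part of the type I complex, read 6.44, 6.36 and 6.02 in control, 6.73, 7.0 and 7.61 in castrated, 5.91, 6.32 and 6.64 in estradiol and 7.08, 6.31 and 7.17 in combined rats. Only its castrated arrays were clear of control, by 0.84 ± 0.27 on average (adjusted p = 0.106).

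Of the 14 measured antiviral effectors, 12 averaged above control in castrated rats and 1 passed. That gene, Ifit1 (probe set 10714907), encodes a protein that binds foreign RNA caps. It read 3.92, 3.88 and 3.93 in control, 4.44, 5.28 and 6.22 in castrated, 4.51, 4.30 and 5.17 in estradiol and 3.74, 3.52 and 3.62 in combined rats. Castrated and estradiol arrays all lay above control, and combined arrays all lay below it. The castrated mean of 5.31 ± 0.90 was 2.65-fold above the control mean of 3.91 ± 0.03 (1.40 ± 0.34, adjusted p = 0.0282). The estradiol difference of 0.75 ± 0.34 (adjusted p = 0.16) and the combined difference of -0.28 ± 0.34 (adjusted p = 0.891) did not pass. Without castrated array 3 the castration difference was 0.95 (adjusted p = 0.0951), and without castrated array 2 or any control array it was 1.39 to 1.42 with adjusted p from 0.0808 to 0.108. Ifit1 lay in the dimmest 25% of genes by mean level.

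Isg20, an exonuclease that degrades single-stranded RNA, stood opposite to most effectors. It read 10.99, 11.09 and 10.95 in control, 10.24, 9.99 and 10.52 in castrated, 8.75, 10.28 and 10.50 in estradiol and 10.41, 10.41 and 10.36 in combined rats. All 9 treated arrays lay below all control arrays. The differences were -0.76 ± 0.34 for castration (adjusted p = 0.276), -1.17 ± 0.34 for estradiol (adjusted p = 0.0508) and -0.62 ± 0.34 for the combined treatment (adjusted p = 0.471). With estradiol arrays 1 and 2 left out of the fit, castration gave -0.76 with an adjusted p of 0.00227 and the combined treatment -0.62 with 0.00814. Without estradiol array 1, 2 or 3 alone, the estradiol difference was -0.62, -1.39 and -1.49 with adjusted p of 0.0277, 0.0462 and 0.00675, so that each such fit called Isg20. Besides Isg20, 1 member lay below control on all 9 treated arrays, namely Ifih1, and 3 lay above, Bst2, Ifi35 and Psmb8. Over all genes 7.27% lay below and 4.63% above in that way.

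**Figure D2:**
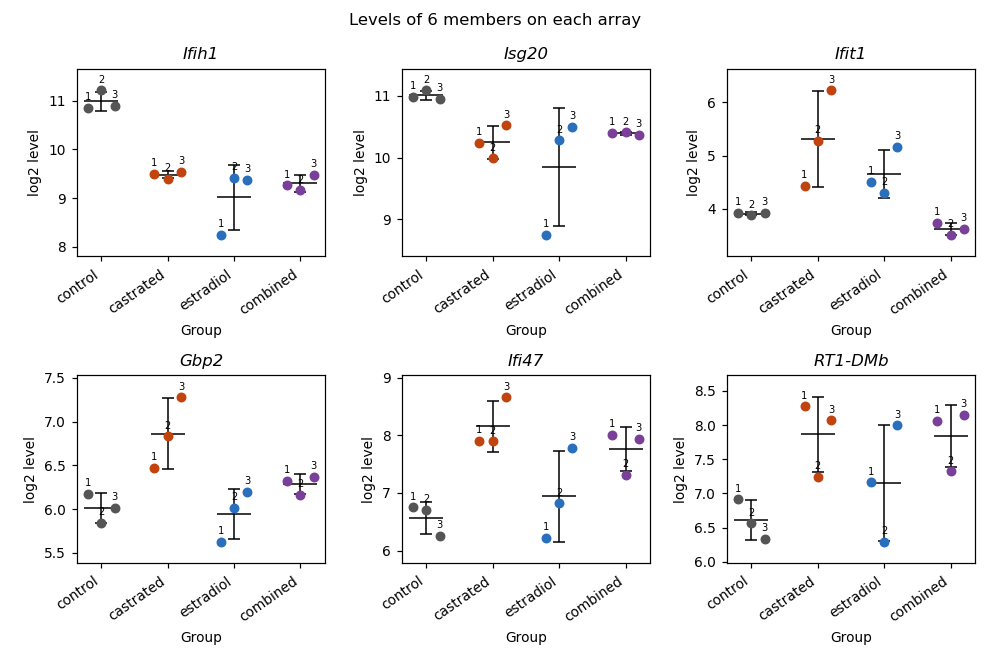
Log2 level (vertical axis) of Ifih1, Isg20, Ifit1, Gbp2, Ifi47 and RT1-DMb on each of the 12 arrays, with points for arrays, long lines for group means and bars for 1 SD either side (n = 3). Ifih1 and Isg20 are highest on the 3 control arrays, and Ifit1 spans 4.44 to 6.22 on the castrated arrays.

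Mx1, a GTPase that blocks viral nucleocapsids, had the largest positive difference of all members in castrated rats, 1.69 ± 0.57. It did not pass (adjusted p = 0.12, limma) in a fit that shares the spread over all 4 groups. Its castrated mean was 7.08, and its SD was 0.18 in control, 1.21 in castrated, 1.01 in estradiol and 0.76 in combined rats. Its values in castrated rats were 6.15, 6.63 and 8.44, against 5.56, 5.41 and 5.20 in control, so that no castrated array overlapped control. Oas1a, Oas1b and Oas2, which make the second messenger of RNase L, averaged 0.88, 0.99 and 0.77 above control, and Isg15, a ubiquitin-like modifier, 0.56. Ifit3 (-0.08) stood close to control. The Oas1 and Ifit families hold near-identical copies, so their probe sets may share signal.

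Among the GTPases that act at vacuoles, all 5 averaged above control in castrated rats, with a median of 0.85, and 2 rose. Ifi47 (probe set 10733056), an immunity-related GTPase, read 6.75, 6.70 and 6.25 in control, 7.90, 7.90 and 8.66 in castrated, 6.22, 6.82 and 7.78 in estradiol and 8.01, 7.32 and 7.93 in combined rats. Castrated and combined arrays all lay above control, and the estradiol arrays overlapped it. The rise after castration was 3.00-fold (1.59 ± 0.34, adjusted p = 0.0155). The combined difference of 1.19 ± 0.34 had an adjusted p of 0.0747, and the estradiol difference of 0.37 one of 0.458. Without castrated array 3 the castration difference was 1.33 (adjusted p = 0.0805), without control array 2 it was 1.65 (adjusted p = 0.0521) and without control array 3 it was 1.43 (adjusted p = 0.0815).

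Gbp2 (probe set 10819523), a guanylate-binding protein, read 6.18, 5.84 and 6.02 in control, 6.47, 6.83 and 7.28 in castrated, 5.63, 6.01 and 6.19 in estradiol and 6.33, 6.16 and 6.37 in combined rats. Each castrated array stood above all 9 others. The rise after castration was 1.80-fold (0.85 ± 0.21, adjusted p = 0.0297). It was -0.07 after estradiol (adjusted p = 0.84) and 0.27 after both (adjusted p = 0.707). Quantile normalization gave 0.79 for castration (adjusted p = 0.0578), and leaving out castrated array 3 gave 0.64 (adjusted p = 0.14). Without castrated array 2, any 1 of the control arrays or combined array 1 it was 0.76 to 0.93, with adjusted p from 0.0506 to 0.147. Irgm and Igtp, of the same family as Ifi47, averaged 0.91 and 0.53 above control in castrated rats with no overlap of arrays, and neither passed.

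Of the other induced genes, Usp18, which removes ISG15 from proteins and restrains the interferon receptor, varied most between arrays. It read 6.31, 5.85 and 5.77 in control, 6.51, 6.88 and 8.39 in castrated, 4.84, 5.47 and 6.46 in estradiol and 6.43, 5.49 and 6.90 in combined rats. Castrated arrays were above control and above all estradiol arrays. The castration difference was 1.28 ± 0.49 (adjusted p = 0.185). Ifi35 read 4.87, 5.18 and 5.03 in control, 5.47, 5.33 and 5.67 in castrated, 5.31, 5.25 and 5.27 in estradiol and 5.46, 5.24 and 5.39 in combined rats, a castration difference of 0.46 ± 0.15 (adjusted p = 0.0931).

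The class I genes supply peptides to the cell surface. Of the 7, 6 averaged above control in castrated rats (median 0.44), 5 in estradiol rats (0.32) and 7 in combined rats (0.45), and none passed. Psmb9, an immunoproteasome subunit, read 6.68, 6.42 and 6.58 in control, 6.81, 7.85 and 8.19 in castrated, 6.32, 7.01 and 7.31 in estradiol and 7.43, 7.02 and 7.37 in combined rats. Castrated and combined arrays were clear of control, by 1.05 ± 0.31 (adjusted p = 0.0721) and 0.71 (adjusted p = 0.302) on average. Psmb8, another subunit, read 5.56, 5.42 and 5.50 in control, 6.15, 5.71 and 6.08 in castrated, 5.81, 5.80 and 6.09 in estradiol and 6.36, 5.73 and 6.25 in combined rats. All its treated arrays lay above control, with differences of 0.49 ± 0.19 (adjusted p = 0.187), 0.41 (adjusted p = 0.162) and 0.62 ± 0.19 (adjusted p = 0.0849) for castration, estradiol and both. Tap1, which forms the peptide transporter with Tap2, averaged 0.70, 0.50 and 0.67 above control in the same order. B2m, the light chain of class I molecules, differed from control by 0.44, -0.39 and 0.37, and its lowest value, 9.99, was on estradiol array 1.

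The class II genes separated the groups less clearly. Their median difference was 0.09 for castration, 0.02 for estradiol and 0.48 for the combined treatment, and all 7 averaged above control after the combined treatment. RT1-DMb, a chain of the molecule that loads class II peptides, read 6.92, 6.56 and 6.34 in control, 8.27, 7.24 and 8.07 in castrated, 7.16, 6.29 and 7.99 in estradiol and 8.06, 7.32 and 8.15 in combined rats. Castrated and combined arrays were above all control arrays, by 1.26 ± 0.38 (adjusted p = 0.0781) and 1.24 ± 0.38 (adjusted p = 0.0952). Ciita, the activator of class II transcription, read 5.11, 5.13 and 5.09 in control, 5.17, 4.70 and 5.24 in castrated, 5.65, 5.35 and 5.32 in estradiol and 5.15, 5.16 and 5.24 in combined rats. It was highest on the 3 estradiol arrays, by 0.33 on average (adjusted p = 0.191). On castrated array 2, 5 of the 7 class II genes had their lowest value of all 12 arrays, against 10.6% of all genes. On castrated array 3, 4 of the 7 had their highest.

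The members' arrays can be compared without a model. In castrated rats 19 of 32 interferon-induced genes had all 3 arrays above control and 2 had all below, where 18.8% and 13.7% of all genes did. After estradiol 6 were above and 5 below (12.3% and 15.1% of all genes). After the combined treatment 9 were above and 3 below (21.1% and 15.8%). Among the 14 antigen presentation genes 4 were above control after castration, 3 after estradiol and 10 after the combined treatment, and none lay below. Read against those backgrounds, the interferon-induced share after castration and the antigen presentation share after the combined treatment were above that of all genes, and the interferon-induced shares after estradiol and the combined treatment were not far from it.

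**Figure D3:**
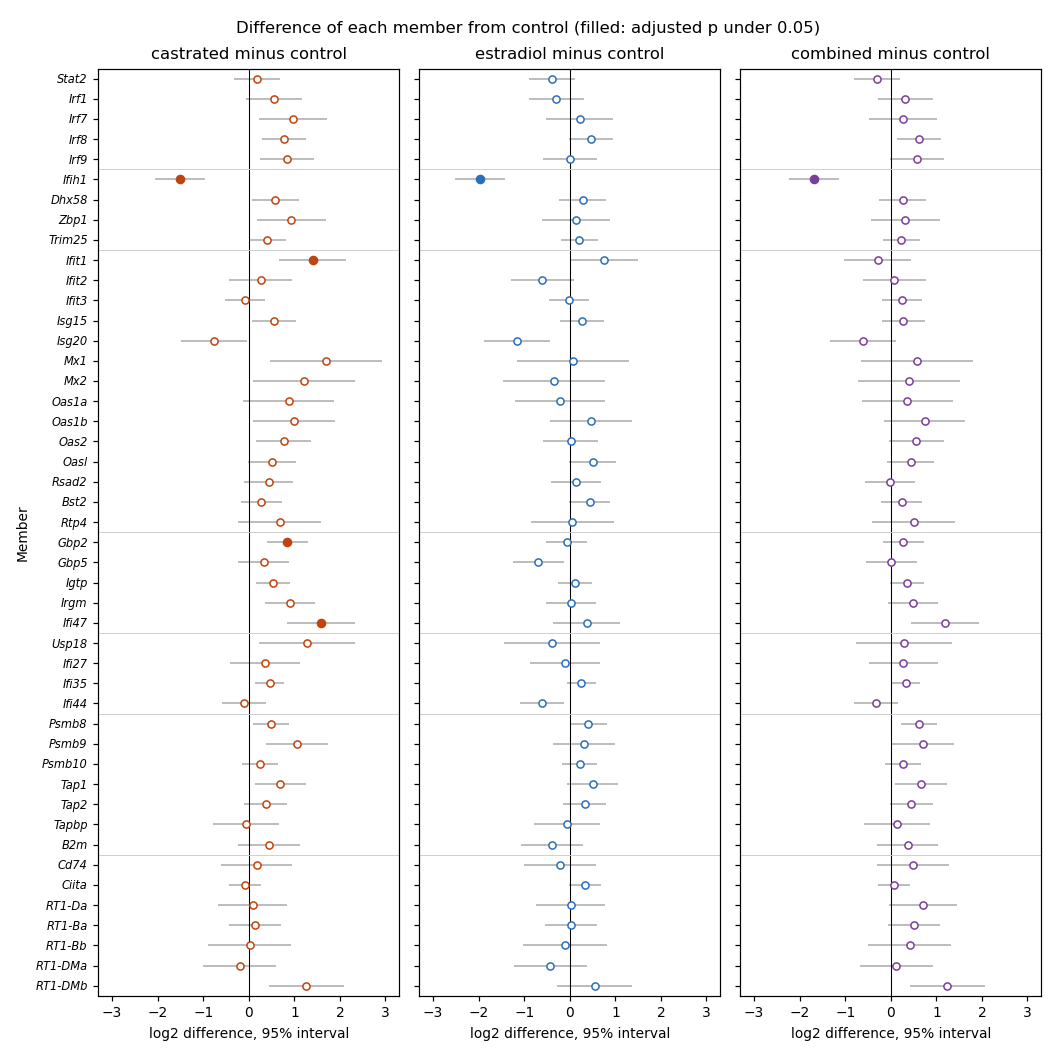
Log2 difference from control (horizontal axis) of each member (vertical axis) for castration, estradiol and the combined treatment, with grey lines for 95% intervals and filled points for an adjusted p under 0.05. Ifih1 is filled in all 3 comparisons, and Ifit1, Gbp2 and Ifi47 for castration alone.

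Array 3 of the castrated group stood apart for these genes. The median interferon-induced gene stood at 0.43, 0.36 and 1.13 above its control mean on the 3 castrated arrays, at -0.22, -0.05 and 0.36 on the estradiol arrays and at 0.46, -0.15 and 0.44 on the combined arrays. The control arrays lay at 0.08, -0.02 and -0.10. On castrated array 3, 26 of the 32 interferon-induced genes and 9 of the 14 antigen presentation genes had their highest value of the 12 arrays, against 5.43% of all genes. Without that array 0 interferon-induced genes rose and 1, Ifih1, fell after castration, with a median of 0.38, and 3.09% of all genes passed. Combined array 2 was also below the other 2 of its group, and 15 of the 32 genes had their lowest value on estradiol array 1, against 25.8% of all genes.

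**Figure D4:**
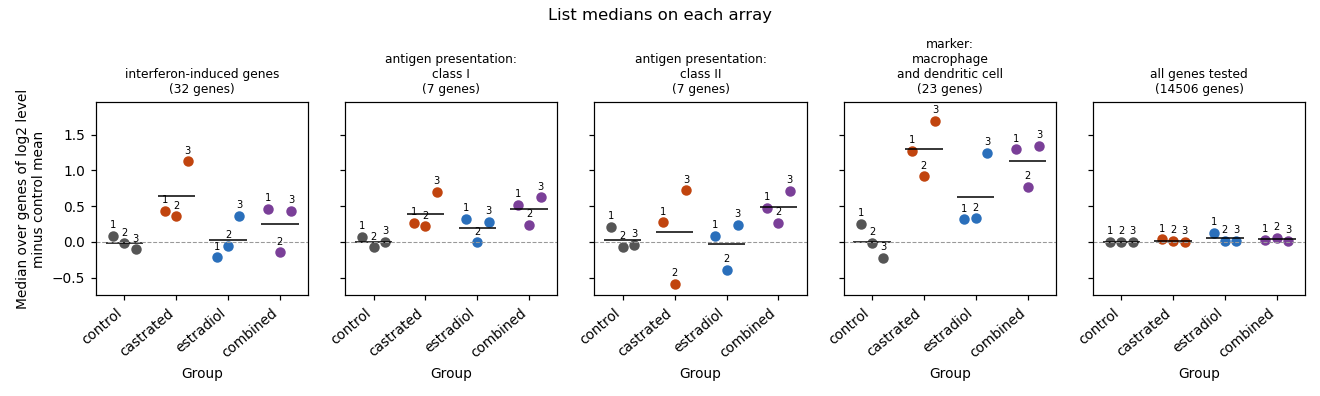
Median over genes of the log2 level minus the control mean (vertical axis) for each array (horizontal axis), drawn for the interferon-induced, class I, class II and macrophage and dendritic cell marker lists and for all genes tested, with black lines at group means. Castrated array 3 gives the highest interferon-induced median, 1.13, and castrated array 2 the lowest class II median, -0.59.

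Markers of macrophages and dendritic cells also differed between the groups. Of 23 measured of 26 listed, 12 rose after castration (median 1.30), 3 after estradiol (0.43) and 8 after the combined treatment (1.15), and none fell. Of all genes 3.17%, 2.51% and 2.12% rose in these comparisons. Their summed linear level ran from 3352 to 4202 on control, 7071 to 11105 on castrated, 3258 to 7852 on estradiol and 6522 to 8270 on combined arrays. Cd68, a lysosomal macrophage protein, averaged 6.47 in control and 7.96 in castrated rats, and Csf1r, the receptor of their growth factor, 7.09 and 8.76. On castrated array 3, 18 of the 23 had their highest value. No probe set was listed at 0 or below on the log2 scale, so no defining marker can be called absent. Their part in the members' differences was not tested, and in tissue RNA more cells of a type cannot be told apart from more RNA per cell.

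Markers of lymphocytes were read in the same way. Of 19 T and NK cell genes 1, 3 and 1 rose after castration, estradiol and both, where 3.17%, 2.51% and 2.12% of all genes did. Their summed levels were 679 to 805 on control, 824 to 1306 on castrated, 802 to 931 on estradiol and 876 to 1125 on combined arrays. Of 6 B and plasma cell genes none passed, with sums of 145 to 176, 141 to 245, 159 to 237 and 171 to 191 in the same order. Sums of 9 secretory epithelium genes were 22974 to 24833 on control arrays, 17568 to 21420 on castrated arrays, 14899 to 19783 on estradiol arrays and 18096 to 20981 on combined arrays. These sums follow the brightest genes: after castration 4 of the 9 rose and 2 fell, with a median log2 difference of 0.33. Pbsn (-6.57) and Andpro (-1.88) fell, while Krt8 (1.28), Krt18 (0.97), Epcam (0.79) and Azgp1 (2.43) rose. After estradiol 2 rose and 3 fell, and after both 4 rose and 1 fell. The T and NK cell sum likewise follows Cd4, at 8.36, 8.09 and 7.77 on control arrays and 9.57 on castrated array 3, and the median log2 difference of that list after castration was 0.06. The part of these markers in the members' values was not tested.

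The test across all 4 groups passed for 4 members, Ifih1 (adjusted p of F = 0.00165), Ifit1 (0.0289), Ifi47 (0.0379) and Gbp2 (0.0495), where 5.47% of all genes passed. Leaving out single arrays gave 1 to 15 such members. The 15 came without estradiol array 3, where 34.1% of all genes passed. The treated groups were also compared with each other. For combined against castrated, combined against estradiol and estradiol against castrated, 0% of all genes passed in each, and so 0 members. At an unadjusted p under 0.05, 2, 5 and 20 of the 46 members differed, beside 1.05%, 18.9% and 27.3% of all genes.

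Estradiol rats averaged below castrated rats for 30 of the 32 interferon-induced genes. The median was -0.60 (-0.29 without castrated array 3), against -0.015 over all genes. On estradiol array 3, whose levels had no narrow spread, the median gene stood 0.36 above its control mean. Castrated arrays 1 and 2 stood at 0.43 and 0.36. In 8 of the 32 all 3 estradiol arrays lay below all castrated arrays, against 9.21% of all genes. The 8 included 4 of the 5 GTPases: Gbp2 differed by -0.92, Gbp5 by -1.01, Irgm by -0.89 and Ifi47 by -1.21. The lowest adjusted p among members was 0.143 (limma), so none of these differences passed. Without estradiol array 3, which leaves the 2 arrays of narrow spread, 16 members passed, all lower after estradiol, with 37.3% of all genes. The antigen presentation genes had a median of -0.12.

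Combined rats also averaged below castrated rats for 30 of the 32 interferon-induced genes, with a median of -0.25, and above estradiol rats for 27 (median 0.29). Without castrated array 3 the median against castrated rats was -0.060. Against castrated rats 2 genes had arrays that did not overlap, both lower in combined rats, where 6.64% of all genes were. These were Ifit1 (-1.69 ± 0.34) and Gbp2 (-0.58 ± 0.21), each with an adjusted p of 1. The antigen presentation genes had a median of 0.14 against castrated and 0.44 against estradiol rats.

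The interaction asks whether estradiol acted differently in castrated than in intact rats. It passed for 2 members, where 1.1% of all genes passed. For Ifih1 estradiol gave -1.97 in intact and -0.18 in castrated rats, an interaction of 1.79 ± 0.36 (adjusted p = 0.0335). For Ifit1 the effects were 0.75 in intact and -1.69 in castrated rats, an interaction of -2.44 ± 0.48 (adjusted p = 0.0294). Leaving out any 1 control, castrated or combined array ended the call of Ifih1 (1.68 to 1.86, adjusted p from 0.0716 to 0.114). For Ifit1 leaving out any 1 control or combined array or castrated array 2 did so (-2.38 to -2.49, adjusted p from 0.0716 to 0.101). The median interaction was -0.42 over interferon-induced genes and 0.04 over antigen presentation genes, against -0.06 over all genes. With 1 array left out at a time these 2 medians ran from -0.61 to -0.19, the latter without estradiol array 3, and from -0.16 to 0.21.

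Leaving estradiol arrays 1 and 2 out of the fit raised the number of calls among members and among all genes for castration and for the combined treatment. For castration 15 members passed, with 16.6% of all genes. Of these, 10 interferon-induced genes rose (Irf8, Irf9, Trim25, Ifit1, Mx1, Gbp2, Igtp, Irgm, Ifi47 and Ifi35), 2 fell (Ifih1 and Isg20), and 3 antigen presentation genes rose (Psmb9, Tap1 and RT1-DMb). For the combined treatment 6 passed, with 14.5% of all genes: Irf8, Ifi47, Psmb8 and RT1-DMb rose and Ifih1 and Isg20 fell. For estradiol this fit rests on array 3 alone, which differed from control by 0.98 for Irf8, 0.63 for Trim25 and -1.61 for Ifih1. That array also had the highest summed level of seminal vesicle genes, 813. The part of this in its values was not tested. With only combined and control arrays in the fit 8 of the 14 antigen presentation genes rose after the combined treatment, with 19.8% of all genes called, and with array quality weights 9 did, with 28.5%.

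Other genes of the pathway were read from a list of 96, of which 72 were measured. In castrated rats 6 rose and 3 fell, where 3.17% of all genes rose and 2.36% fell. After estradiol 2 rose and 6 fell (2.51% and 5.48% of all genes), and after the combined treatment 2 and 3 (2.12% and 2.21%). The medians were 0.24, 0.07 and 0.26, against 0.01, 0.07 and 0.04 over all genes. Receptors and sensors were among the genes that rose. Ifngr1, the ligand-binding chain of the interferon gamma receptor, read 10.11, 10.27 and 10.22 in control and 11.92, 12.06 and 11.76 in castrated rats. It rose by 1.71 ± 0.24 after castration (adjusted p = 0.000931), 1.12 after estradiol (adjusted p = 0.0148) and 1.45 after both (adjusted p = 0.00336). The ligands Ifng and Ifnb1 did not pass after castration, with differences of -0.25 (adjusted p = 0.738, limma) and 0.13 (adjusted p = 0.911). Both were dim, with mean levels over all arrays of 3.39 and 4.09, at percentiles 8.17 and 15.2 of all genes. A change could be missed at such levels, so these values do not show that the ligands were unchanged. Tlr7, an endosomal sensor of single-stranded RNA (1.65 ± 0.33, adjusted p = 0.0102), Il18, a cytokine that drives interferon gamma release (1.57 ± 0.30, adjusted p = 0.00783), and Ctss, the protease that trims the class II invariant chain (1.53 ± 0.30, adjusted p = 0.00809), rose after castration.

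The largest fall in that list was in Oas1k, a copy of the oligoadenylate synthetase family to which the members Oas1a and Oas1b belong. It read 8.42, 8.58 and 8.82 in control, 5.0, 5.68 and 4.70 in castrated, 4.91, 5.99 and 5.52 in estradiol and 5.74, 5.35 and 5.13 in combined rats. All treated arrays lay far below control. The differences were -3.49 ± 0.29 (adjusted p = 1.1e-05), -3.14 (adjusted p = 3.42e-05) and -3.20 (adjusted p = 2.28e-05) for castration, estradiol and both. Calr, a chaperone that folds class I chains, and Ifitm2, a membrane protein that blocks viral entry, also fell in all 3 comparisons, by 1.11 and 1.09 on the log2 scale after castration. After estradiol alone Psme2, a proteasome activator subunit, fell by 0.82.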

How the data were processed

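Ventral prostate RNA was hybridised to 12 Affymetrix arrays. Affymetrix Expression Console made the values, per the submitters' processing notes. The deposited values were taken as log2 levels from their range. For the log base, normalization and build, the sources used here say nothing. Of 29214 probe sets, 15310 had 1 gene symbol, 323 several and 13581 none. This left 14506 genes after keeping the brightest probe set, by mean over arrays, of 527 genes that had several. No gene was filtered out for a low level.

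The values were fitted with limma 3.58.1 in R 4.3.3 (lmFit, eBayes), 1 mean per group over all 12 arrays, with 8 residual and 5.29 prior degrees of freedom, and p-values were 2-sided and adjusted over all 14506 genes. The fit was run on simulated data in which each gene had the same spread on all 12 arrays. That run did not include the narrow spread of levels of estradiol arrays 1 and 2. Values of each array are given for members that passed and for the 2 members of each role with the smallest p of F; others, such as Mx1, were named after their values were seen. Of the other pathway genes, up to 4 rises and 4 falls a comparison could be named. The members, lists and this rule were chosen with earlier results of these data known. Alternatives were array centring, quantile normalization, array weights, a trended prior, a filter on dim genes, mean probe sets, the compared groups alone, the replicate number as a block, and arrays left out. The number of arrays limits the precision. Motifs were searched with Python 3.11.15 in RefSeq promoters of build GRCr8.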

Additional observations from a re-analysis of the deposited data

Results flagged for a closer look

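The estradiol effect differed between castrated and intact rats for 5 of the members and other pathway genes, 2 of them members, by limma's interaction term over all 14506 genes. The interaction of Ifih1 was 1.79 (adjusted p = 0.0335), with effects of -1.97 in intact and -0.18 in castrated rats. That of Ifit1 was -2.44 (adjusted p = 0.0294), with effects of 0.75 and -1.69. Among the other pathway genes it was 3.42 for Oas1k (adjusted p = 0.0012, effects -3.14 and 0.29), 1.28 for Ifitm2 (adjusted p = 0.0193, effects -0.84 and 0.44) and 1.32 for Calr (adjusted p = 0.0312, effects -1.07 and 0.25). For Ifih1, Oas1k, Ifitm2 and Calr the castrated group was itself below control. No rule flagged single outlying arrays in groups of 3, but fits with 1 array left out at a time are given below.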

How the results depend on the processing

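Directions of the called members were the same under all alternatives run. Ifih1 passed in 21 of 21 alternatives in each comparison with control, Ifi47 in 18 of 21, Gbp2 in 14 of 21 and Ifit1, which the filter on dim genes removed, in 15 of 20 for castration. The interaction passed in 10 of 20 for Ifih1 and 11 of 19 for Ifit1. The number of members called was less stable, and the cause was not tested. The share of all genes called in the same fit stands in parentheses. For castration (4 members, 5.54%) it was 34 with array weights (26.1%), 15 without estradiol arrays 1 and 2 (16.6%), 10 with only the groups compared (12.9%) and 8 without castrated array 3 and these estradiol arrays (13.8%), an alternative added after seeing the data. For estradiol (1, 7.99%) it was 2 with array medians centred (9.02%) or the dimmest 25% of genes left out (10.8%) and 3 with weights (15.9%). Fits without the 2 arrays leave estradiol array 3 alone, so their counts are not given for estradiol, the interaction or any difference. Medians of these fits for comparisons with the estradiol group rest on that array too. For the combined treatment (1, 4.32%) it was 22 with weights (28.5%), 6 without the 2 arrays (14.5%), 15 with only the groups compared (19.8%) and 9 in the added alternative (14.1%). Weights gave 1 for combined against castrated (0.0896%) and 6 for estradiol against castrated (11.2%), in place of 0. The interaction (2, 1.1%) gave 1 with centring (0.917%), quantile normalization (1.16%) or the dim filter (1.62%). The test of any difference (4, 5.47%) gave 2 with centring (4.98%), 1 with quantiles (4.76%), 35 with weights (36.6%), 8 without the 2 arrays (12%) and 7 in the added alternative (11.1%). The interferon-induced median for estradiol moved from 0.04 to 0.36 without the 2 arrays and in the added alternative, and that for estradiol against castrated from -0.60 to -0.046 in the latter. The antigen presentation median moved to 0.50 with weights for castration, to 0.10 for combined against estradiol without the 2 arrays and in the added alternative, and to -0.73 with weights and 0.27 in the added alternative for estradiol against castrated. Leaving out 1 array at a time gave 1 to 11 members for castration (the 11 without estradiol array 1, 12.3%) and 1 to 4 for the combined treatment (the 4 without estradiol array 1, 10.2%). The highest counts without estradiol array 3 were 4 for estradiol (36.7%), 5 for combined against estradiol (28.6%), 16 for estradiol against castrated (37.3%), 3 for the interaction (11.6%) and 15 for any difference (34.1%), with lowest counts of 1, 0, 0, 0 and 1. Antigen presentation medians then ran from 0.065 to 0.52 for castration, -0.13 to 0.28 for combined against castrated and -0.44 to 0.058 for estradiol against castrated, all with castrated array 2 or 3 left out at the ends. Without estradiol array 3 the medians for estradiol were -0.093 (interferon-induced) and 0.024 (antigen presentation). Against estradiol the combined medians ran from 0.18 to 0.44 and from 0.24 to 0.59, the highest without estradiol array 3. The interferon-induced median for the combined treatment ran from 0.22 to 0.45, the highest without combined array 2.

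The labels number replicates 1 to 3 in each group but tie no number to a litter or day. Deviations of arrays with the same number correlated from -0.156 to 0.284 and of arrays with other numbers from -0.248 to 0.285, so the numbers were not shown to pair the arrays. With the replicate number as a block, 9, 2, 2 and 2 members were called for castration, estradiol, both and the interaction, and 5 for any difference, with 5.69%, 8.65%, 4.49%, 1.03% and 5.6% of all genes. For castration 3 of the 9 were antigen presentation genes.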

Other observations

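Summed levels of 9 endothelial genes were 744 to 904 on control arrays, 787 to 893 on castrated arrays, 565 to 634 on estradiol arrays and 759 to 889 on combined arrays. Those of 12 smooth muscle and fibroblast genes were 9741 to 11412, 8536 to 11267, 6366 to 7632 and 8792 to 12728 in the same order. Sums of 10 granulocyte genes were 188 to 209, 202 to 217, 207 to 295 and 200 to 228. Sums of 6 seminal vesicle genes were 113 to 211, 85 to 116, 105 to 813 and 100 to 104. The 813 was on estradiol array 3 and came from Semg1, a seminal vesicle secretory protein, at 9.46 on the log2 scale there and between 2.62 and 3.43 on the other 11 arrays.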
